A study of Mus musculus with 6 samples.

Results

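The 10 genes described here carry or govern the entry of pyruvate into mitochondrial metabolism: the carrier subunits Mpc1 and Mpc2, pyruvate carboxylase (Pcx), the pyruvate dehydrogenase subunits Pdha1, Pdhb and Dlat, and the pyruvate dehydrogenase kinases Pdk1, Pdk2, Pdk3 and Pdk4. They were chosen by symbol for their known function, with earlier results of these data known. All 10 were among the 13283 genes listed with a value in each library. RNA-seq was done on 6 libraries of an immortalized mouse brown preadipocyte line (BAT cells) that stably expresses Cas9, a DNA-cutting enzyme directed by a guide RNA. MICT1 KO cells, 3 libraries, came from knockout pools made with 2 sgRNAs against MICT1 and sorted for GFP, and Scr cells, 3 libraries, carried a scrambled sgRNA and are named WT in the sample labels. Both groups went through adipogenic differentiation and received 10 µM forskolin, which raises cAMP, for 6 h on day 6, so every value below is from forskolin-treated cells and none from the basal condition. The knockout cells are pools and not single clones, and the labels do not say from which pool each MICT1 KO library came. The level of MICT1 itself was not analysed here.

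Pyruvate made in the cytosol crosses the inner mitochondrial membrane through a carrier built of MPC1 and MPC2, and in the matrix it has 2 main fates. The pyruvate dehydrogenase complex turns it into acetyl-CoA for the citric acid cycle, and pyruvate carboxylase turns it into oxaloacetate, which in adipocytes supports citrate export for fatty acid synthesis and glyceride synthesis. The PDK kinases phosphorylate the alpha subunit of the dehydrogenase and switch the complex off, and the PDP phosphatases reverse this.

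Of the 10 genes, 9 were lower and 1, Pdk3, was higher in MICT1 KO than in Scr cells. Pcx fell most, 8.55-fold, followed by Mpc2 at 3.31-fold, and Pdha1 fell least, 1.20-fold. All 10 passed an adjusted p of 0.05 by limma-trend with Benjamini-Hochberg adjustment over the 12507 genes tested, but so did 56.9% of all genes tested, so that passing the test does not set these genes apart. In each direction the background was 28.3% lower and 28.5% higher. A fall of at least 2-fold, seen for 5 of the 10 (Pcx, Mpc2, Pdk2, Mpc1 and Pdhb), was rarer among all genes tested, at 5.76%. The MICT1 KO and Scr values did not overlap for any of the 10 genes, which held for 62.0% of all genes tested. The median log2 fold change of the 10 genes was -1.01, beside -0.00531 for all genes tested.

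Depth differed little between the libraries, which held an estimated 15441042 to 17918612 reads. These cultures also differed in the genes of their cell state, and this applies to each fall and each rise given here. All 9 adipocyte markers measured were lower in MICT1 KO cells, with a summed level of 7540 to 9140 CPM (signal scaled to the library's sum) in Scr and 914 to 1310 CPM in MICT1 KO libraries. Adipoq, Plin1 and Fabp4 had log2 fold changes of -6.66, -5.93 and -3.33. All 6 markers of dividing cells were higher, at 1220 to 1350 CPM in Scr and 2050 to 2320 CPM in MICT1 KO. Of 6 tested progenitor and fibroblast markers 3 were higher and 2 lower, with sums of 2230 to 2590 and 3060 to 3260 CPM. Most of the rise in the sum was Col1a1, with a mean signal of 17960 in Scr and 30600 in MICT1 KO. Pdgfrb and Ly6a were also higher, Pdgfra and Dlk1 (687.2 against 63.85) were lower, and Col3a1 did not pass the test. The labelled cell type could be checked with only 3 of 8 brown adipocyte markers, the other 5 not being among the genes listed. The 3 markers summed to 7.31 to 9.50 CPM in Scr and 7.95 to 10.8 CPM in MICT1 KO libraries. Most of that sum was Cox7a1, with a mean signal of 104.3 ± 16.6 in Scr and 133.9 ± 28.2 in MICT1 KO. Its groups overlapped (limma-trend, Benjamini-Hochberg adjusted p = 0.141). Ucp1, the uncoupling protein of brown fat, was low in both groups, at 20.77, 24.10 and 30.53 in Scr, while the MICT1 KO libraries gave 1.907, 1.054 and 9.329. The log2 fold change of Ucp1 was -2.71 (SE 0.64, limma-trend, Benjamini-Hochberg adjusted p = 0.00112). Ppargc1a, with a mean signal of 5.5 in Scr and 7.52 in MICT1 KO, was too low to be tested. Markers of macrophages (3 measured, 15.4 to 21.9 against 30.0 to 38.2 CPM, Cd14 higher), muscle (2 measured, 3.79 to 4.79 against 3.37 to 5.74 CPM) and endothelium (1 measured, Cdh5, 0.368 to 0.725 against 1.59 to 2.03 CPM, higher) were a small part of each library. The part of the adipocyte and dividing-cell markers in the results was not tested, and in bulk RNA fewer cells of a type and less RNA per cell cannot be told apart. The labels do not tie the 3 libraries of a group to separate experiments, so p-values measure the spread between these cultures only.

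**Figure D1:**
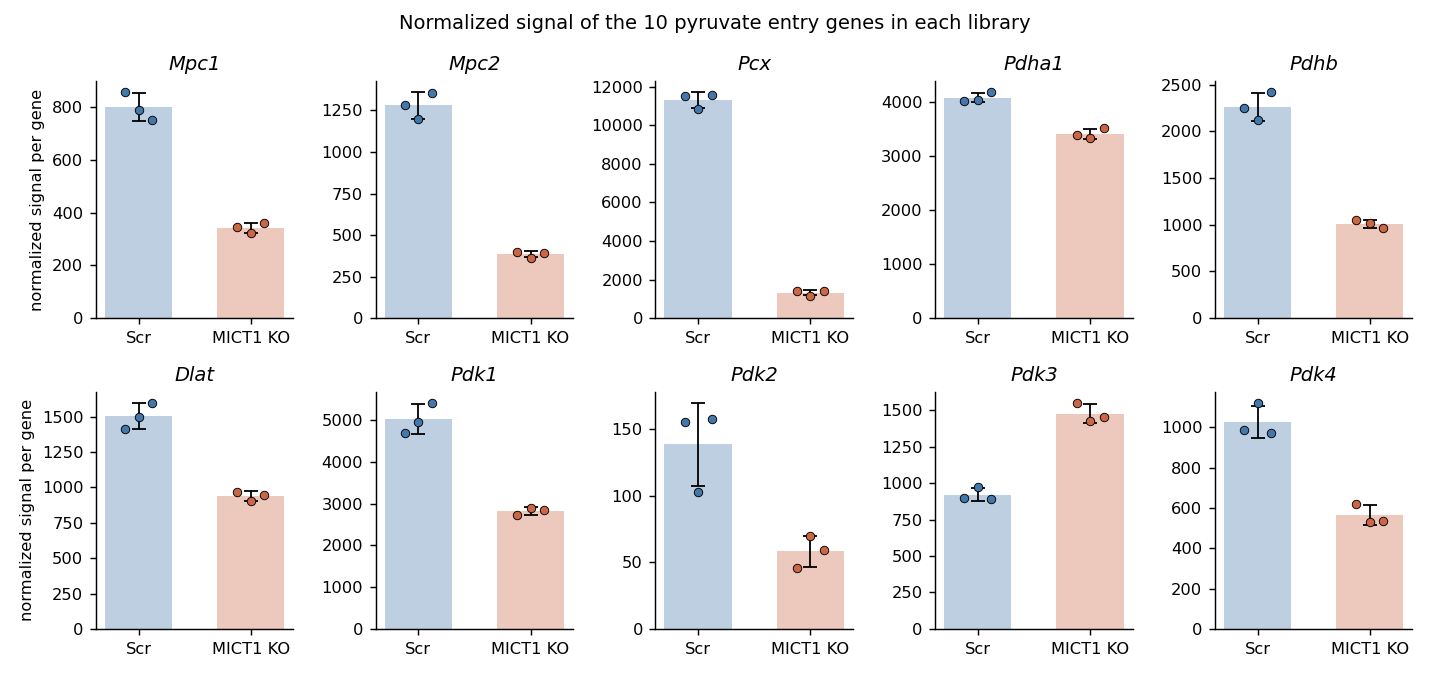
Normalized signal per gene (y axis, 1 scale for each gene, starting at 0) of the 10 genes in the 3 Scr and 3 MICT1 KO libraries. Points are libraries, bars are means and error bars are 1 SD. The points of the groups do not overlap in any panel, Pcx shows the widest gap (10860 and above against 1418 and below), and Pdk3 is the only gene with the MICT1 KO points on top.

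The sequences just upstream of the start sites are shown for the carrier genes and Pcx, which include the 2 deepest falls, and for Pdk3, the one gene that rose, so that genes moving in opposite directions can be set side by side. Each line gives the 250 bases before an annotated start, 5′ to 3′ on the gene's strand, from RefSeq on GRCm38.p6. Capitals mark a CCAAT box (CCAAT, or ATTGG on the other strand), a GC box (GGGCGG or CCGCCC) or the short core of the cAMP response element (TGACG or CGTCA). The windows lie at chr17:8283537-8283786 and chr17:8284204-8284453 on the plus strand for the upstream and downstream starts of Mpc1, chr1:165461010-165461259 on the plus strand for Mpc2, chr19:4510222-4510471 and chr19:4594069-4594318 on the plus strand for the upstream and downstream starts of Pcx, and chrX:93832151-93832400 on the minus strand for Pdk3.
Mpc1 upstream start: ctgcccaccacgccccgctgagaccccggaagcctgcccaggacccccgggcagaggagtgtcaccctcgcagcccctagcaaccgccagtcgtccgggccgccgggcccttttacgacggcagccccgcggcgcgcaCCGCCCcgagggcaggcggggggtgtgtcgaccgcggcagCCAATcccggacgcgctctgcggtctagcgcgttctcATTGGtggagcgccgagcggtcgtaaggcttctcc
Mpc1 downstream start: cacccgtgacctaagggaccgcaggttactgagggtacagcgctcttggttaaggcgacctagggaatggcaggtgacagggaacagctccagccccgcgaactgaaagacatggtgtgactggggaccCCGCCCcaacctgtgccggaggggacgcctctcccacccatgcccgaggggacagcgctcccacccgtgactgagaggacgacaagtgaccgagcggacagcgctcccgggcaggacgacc
Mpc2: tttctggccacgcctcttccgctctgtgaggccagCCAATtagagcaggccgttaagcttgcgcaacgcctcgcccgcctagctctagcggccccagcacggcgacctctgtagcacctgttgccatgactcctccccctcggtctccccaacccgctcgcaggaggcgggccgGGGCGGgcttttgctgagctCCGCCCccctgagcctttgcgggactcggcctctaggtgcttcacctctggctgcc
Pcx upstream start: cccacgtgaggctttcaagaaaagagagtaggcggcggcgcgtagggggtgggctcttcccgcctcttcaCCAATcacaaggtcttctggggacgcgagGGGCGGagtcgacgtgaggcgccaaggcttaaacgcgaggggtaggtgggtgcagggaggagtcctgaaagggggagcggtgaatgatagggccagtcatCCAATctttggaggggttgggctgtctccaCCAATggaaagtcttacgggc
Pcx downstream start: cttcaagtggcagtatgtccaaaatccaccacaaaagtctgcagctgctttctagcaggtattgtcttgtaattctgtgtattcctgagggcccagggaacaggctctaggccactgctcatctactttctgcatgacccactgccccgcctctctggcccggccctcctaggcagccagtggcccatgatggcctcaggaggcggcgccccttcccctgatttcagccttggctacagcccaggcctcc
Pdk3: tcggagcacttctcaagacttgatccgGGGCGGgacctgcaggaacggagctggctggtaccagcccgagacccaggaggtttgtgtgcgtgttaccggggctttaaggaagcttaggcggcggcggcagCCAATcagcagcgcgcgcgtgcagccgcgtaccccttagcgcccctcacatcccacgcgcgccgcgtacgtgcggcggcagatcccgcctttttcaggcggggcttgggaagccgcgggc

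A CCAAT box stood in the windows of the upstream starts of Mpc1 and Pcx and in those of Mpc2 and Pdk3, so its presence was shared by genes that fell and the gene that rose. Over all 10 genes, which have 14 such windows, a CCAAT box was in 7 windows, 1 each for 7 genes (also Pdhb, Pdk2 and Pdk4), beside 33.8% of the 32851 windows of the RefSeq table. A GC box was in 8 of the 14 windows, from 7 genes (also Pdhb, Dlat and Pdk1), beside 32.7% of all windows. The downstream Mpc1 window held a GC box and no CCAAT box, with 18 CpG and a GC content of 65.6%. The downstream Pcx window held none of the capitalized motifs, and it was poorer in CpG than the upstream one, with 4 against 16 CpG and a GC content of 58.0% against 60.8%. Across all windows the medians were 6 CpG and 52.4% GC, and most windows of the 10 genes lay above both. Among them were the upstream Mpc1, Mpc2 and Pdk3 windows, with 32, 19 and 29 CpG and 73.6%, 67.2% and 67.6% GC. The downstream Pcx window, the Pdk4 window (6 CpG) and the downstream Pdk1 window (2 CpG, 38.4% GC) did not. The gene-level values do not separate transcripts from the 2 Pcx starts.

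The short cAMP element core stood only in the windows of Pdhb and Dlat among the 10 genes, beside 17.8% of all windows. The core of the hypoxia response element, ACGTG or CACGT, was in windows of Pcx, Pdhb, Pdk2 and Pdk3, beside 16.6%. None of the 14 windows held the full cAMP element TGACGTCA (1.55% of all windows), the extended nuclear receptor site AAGGTCA (4.08%), the FOXO site GTAAACA (3.17%), the NRF1 core GCATGCGC (2.26%) or TATAAA (12.4%), each searched on both strands. The full cAMP element contains its short core, so these motifs are not independent. A match describes these letters in this window only.

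Both subunits of the pyruvate carrier were lower in MICT1 KO cells. Mpc1 (chr17:8283787-8297667, plus strand, GRCm38) had a signal of 856.5, 790.7 and 753.0 for Scr, compared with 344.2, 323.5 and 359.7 for the knockout libraries, where signal is the authors' normalized estimate of reads per gene. Its mean went from 800.1 ± 52.4 to 342.4 ± 18.2 (SD, n = 3), and the lowest Scr library stood 393.3 above the highest MICT1 KO library. The fold change of Mpc1 on the log2(signal + 1) scale was -1.22 (SE 0.093, limma-trend, Benjamini-Hochberg adjusted p = 4.84e-10), or 2.33-fold lower. Its exons share 480 bases with the opposite-strand transcript 4930506C21Rik, and a processed pseudogene, Mpc1-ps, is annotated. The study's methods describe strand-specific libraries, but how the counting used strand and treated multiply matching reads is not given in the sources used here, so the Mpc1 level carries that uncertainty.

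Mpc2 (chr1:165461260-165481218, plus strand), the partner without which the carrier is not stable, read 1283, 1199 and 1357 in Scr libraries, against 398.5, 364.6 and 394.9 for MICT1 KO. The nearest libraries of the groups were 800.1 apart, and the means were 1280 ± 79.5 and 386.0 ± 18.7. Its log2 fold change was -1.73 (SE 0.084, limma-trend, Benjamini-Hochberg adjusted p = 2.65e-13), and 2.32% of the genes tested had a lower one. The fall of Mpc2 was the deeper of the pair, and the balance of the subunit RNAs was compared within each library. The ratio of Mpc1 to Mpc2 in RPKM (signal scaled to exon length and to the library's summed signal) was 2.36, 2.33 and 1.96 in Scr, while the MICT1 KO libraries gave 3.05, 3.13 and 3.21. The means of 2.21 ± 0.222 and 3.13 ± 0.0831 gave p = 0.1 in an exact permutation test, two-sided, which is the smallest p that 3 against 3 libraries allow, and Benjamini-Hochberg adjustment over 10 ratios gave 0.111. Which subunit had the higher level depended on the length used, since with the length of the principal transcript the ratios became 0.671 and 0.949, but the ratio was higher in MICT1 KO cells with either length.

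Pcx (chr19:4510472-4621752, plus strand), the biotin enzyme that makes oxaloacetate from pyruvate, had the deepest fall of the 10 genes. Its signal was 11510, 10860 and 11570 for Scr, compared with 1413, 1154 and 1418 for the knockout libraries. The groups were far apart against a spread of 394 in Scr and 151 in MICT1 KO (SD, n = 3), with means of 11310 and 1328. The log2 fold change was -3.10 (SE 0.069, limma-trend, Benjamini-Hochberg adjusted p = 1.12e-18), an 8.55-fold fall with a 95% confidence interval of 7.74-fold to 9.44-fold. Only 0.704% of the genes tested had a lower log2 fold change, which put Pcx at rank 89 from the lowest of 12507. Among the adipocyte markers, Adipoq, Plin1, Fabp4, Cidec, Lipe and Pnpla2 fell further than Pcx. Cebpa, Lpl and Pparg fell less, with log2 fold changes of -3.01, -2.44 and -2.31.

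**Figure D2:**
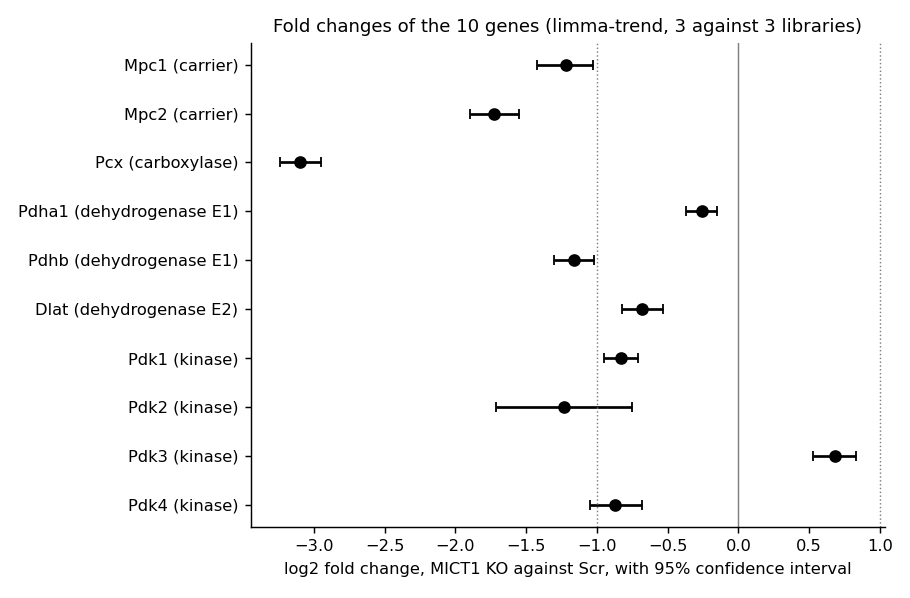
Log2 fold change of MICT1 KO against Scr (x axis) for the 10 genes, labelled by role, with the 95% confidence interval from limma-trend over 3 and 3 libraries. Dotted lines mark a 2-fold change either way. Pcx at -3.10 stands apart from the rest, Pdha1 at -0.26 is nearest to 0, and only Pdk3 at 0.68 lies to the right.

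The 3 dehydrogenase subunits all fell, by 1.20-fold to 2.24-fold. Pdha1 (chrX:160122219-160138430, minus strand) encodes the alpha subunit of the decarboxylating enzyme, the one that the kinases phosphorylate, and read 4032, 4047 and 4185 in Scr libraries, against 3393, 3338 and 3516 for MICT1 KO. The MICT1 KO values were lower by a small margin, 516.1 between the nearest libraries. The means were 4088 ± 84.3 and 3416 ± 91.6, and the log2 fold change was -0.26 (SE 0.053, limma-trend, Benjamini-Hochberg adjusted p = 0.000322). Of all genes tested, 28.8% had a lower log2 fold change. Pdha1 shares 603 exonic bases with Map3k15 on the opposite strand and has a close retrotransposed relative, Pdha2. Neither was analysed here, and how reads matching both were counted is not given in the sources used here.

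Pdhb (chr14:8165991-8173303, minus strand), the beta subunit that pairs with Pdha1, had the largest fall of the 3. Its signal was 2248, 2122 and 2417 in Scr, while the MICT1 KO libraries gave 1050, 1015 and 967.1. Each MICT1 KO library thus stood at less than the lowest Scr value by 1072 or more. The means were 2262 ± 148 and 1010 ± 41.4, with a log2 fold change of -1.16 (SE 0.068, limma-trend, Benjamini-Hochberg adjusted p = 5.65e-12), or 2.24-fold lower. Dlat (chr9:50634633-50659780, minus strand), the lipoyl-bearing acetyltransferase of the core, read 1413, 1498 and 1596 for Scr, compared with 968.6, 905.1 and 944.3 for the knockout libraries. It lay between the other subunits in its change, from 1502 ± 91.2 to 939.3 ± 32.1, with a log2 fold change of -0.68 (SE 0.070, limma-trend, Benjamini-Hochberg adjusted p = 5.51e-08), or 1.60-fold lower.

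The proportions of the subunit RNAs also differed between the groups, without overlap. In RPKM, Pdha1 per Pdhb was 1.85, 1.97 and 1.79 in Scr libraries, against 3.34, 3.40 and 3.76 for MICT1 KO, so the alpha subunit stood higher against its partner in each knockout library. Pdha1 per Dlat was 3.57 ± 0.153 in Scr and 4.76 ± 0.155 in MICT1 KO. A ratio of Pdhb to Dlat, added after the values were seen, went the other way, from 1.91 ± 0.111 to 1.36 ± 0.0619. None of these ratios overlapped between the groups, and each gave the smallest possible p of 0.1 in the exact permutation test (two-sided, adjusted 0.111 over 10 ratios). With principal transcript lengths Pdha1 per Pdhb became 0.962 and 1.80, which moved the level but not the direction. The ratio of Pcx to Pdha1, also added after the values were seen, sets the 2 fates of pyruvate side by side at the RNA level. It was 2.24, 2.11 and 2.17 in Scr, while the MICT1 KO libraries gave 0.327, 0.272 and 0.317, with the same p of 0.1 in the exact permutation test. Pcx RNA thus exceeded Pdha1 RNA in each Scr library and was below it in each MICT1 KO library. That crossing rests on the choice of Pdha1, the subunit that fell least. With exon lengths the MICT1 KO mean of Pcx was 17.1 RPKM, beside 16.0 for Pdhb, with overlapping ranges, and 11.8 for Dlat. With principal transcript lengths the MICT1 KO mean of Pcx was below that of Pdhb and above that of Dlat.

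Of the 4 kinases, 3 were lower and 1 was higher. Pdk1 (chr2:71873215-71903858, plus strand), a kinase known as a target of the hypoxia factor HIF, read 4703, 4955 and 5411 for Scr, compared with 2720, 2901 and 2840 for the knockout libraries. Its groups were 1802 apart at their nearest. The mean went from 5023 ± 359 to 2820 ± 92.0, a log2 fold change of -0.83 (SE 0.059, limma-trend, Benjamini-Hochberg adjusted p = 1.67e-10). Pdk4 (chr6:5483351-5496278, minus strand), the kinase induced by fasting and by PPAR and FOXO factors in many tissues, read 985.1, 1120 and 972.8 in Scr libraries, against 620.6, 532.1 and 535.9 for MICT1 KO. Its fall was of a size close to that of Pdk1, from 1026 ± 81.5 to 562.9 ± 50.1, with a log2 fold change of -0.87 (SE 0.087, limma-trend, Benjamini-Hochberg adjusted p = 3.47e-08).

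Pdk2 (chr11:95026258-95041371, minus strand), a kinase found in most tissues, was the scarcest of the 10 genes and the least precisely measured. It read 155.3, 102.9 and 157.7 in Scr, while the MICT1 KO libraries gave 45.76, 69.54 and 59.08. The groups did not overlap but came within 33.36 of each other, Scr replicate 2 being the low one of its group. The coefficient of variation was 22.3% in Scr and 20.5% in MICT1 KO, above the 8.49% and 13.1% that counting error alone would give at these means. The log2 fold change of -1.23 had an SE of 0.23 and a 95% confidence interval from -1.71 to -0.75 (limma-trend, Benjamini-Hochberg adjusted p = 0.000112). Its highest RPKM in any library was 3.05, so a filter at a maximum RPKM of 4 would leave Pdk2 out.

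Pdk3 (chrX:93764616-93832150, minus strand), a kinase otherwise best known from testis, kidney and brain, was the only gene of the group that rose. Its signal was 899.1, 972.4 and 889.4 for Scr, compared with 1549, 1426 and 1452 for the knockout libraries. Every MICT1 KO library lay at least 453.1 above the highest Scr library. The mean went from 920.3 ± 45.4 to 1476 ± 65.1, a log2 fold change of 0.68 (SE 0.070, limma-trend, Benjamini-Hochberg adjusted p = 4.73e-08), or 1.60-fold higher with a 95% confidence interval of 1.45-fold to 1.77-fold. Of all genes tested, 13.7% had a higher log2 fold change.

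With Pdk3 rising as the others fell, the kinase RNA had another make-up in each MICT1 KO library. Pdk3 was 27.3%, 27.8% and 25.4% of the summed RPKM of the 4 kinases in Scr libraries, against 52.8%, 50.5% and 51.4% for MICT1 KO. Pdk1, the leading kinase in each Scr library at 48.1% ± 2.31 (SD, n = 3), was 32.5% ± 1.73 in MICT1 KO, where Pdk3 led in each library. Pdk4 went from 21.8% ± 1.54 to 14.3% ± 0.949 and Pdk2 from 3.28% ± 0.786 to 1.65% ± 0.367. No share overlapped between the groups. Each gave the smallest possible p of 0.1 in the exact permutation test (two-sided, adjusted 0.111 over 10 ratios). The 4 shares are parts of the same sum and not independent. That the Pdk3 share did not overlap followed from the values of the single kinases, so its p adds nothing to them. With principal transcript lengths the Pdk3 share was 24.7% and 48.8%. The summed RPKM of the 4 kinases was 81.9 ± 1.92 in Scr and 68.5 ± 1.08 in MICT1 KO, 1.20-fold lower, the size of the fall of Pdha1. Summed kinase RPKM per Pdha1 RPKM was 1.19, 1.26 and 1.22 in Scr, while the MICT1 KO libraries gave 1.26, 1.23 and 1.17, groups that overlapped (exact permutation test, two-sided, p = 0.9). This ratio rests on dividing by length, because the kinases differ in length. With the signal as deposited the sum per Pdha1 was lower in MICT1 KO cells, with a log2 difference of -0.271 (exact permutation test, p = 0.1), and with principal transcript lengths the difference was -0.0404 (p = 0.4 in the exact permutation test). A p of this size in 3 against 3 libraries does not show that the ratio was the same. The ratio also rests on the choice of Pdha1, since Pdhb fell 2.24-fold and Dlat 1.60-fold, more than the summed kinases. These are RNA levels, and neither kinase activity nor phosphorylation of the complex was measured.

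**Figure D3:**
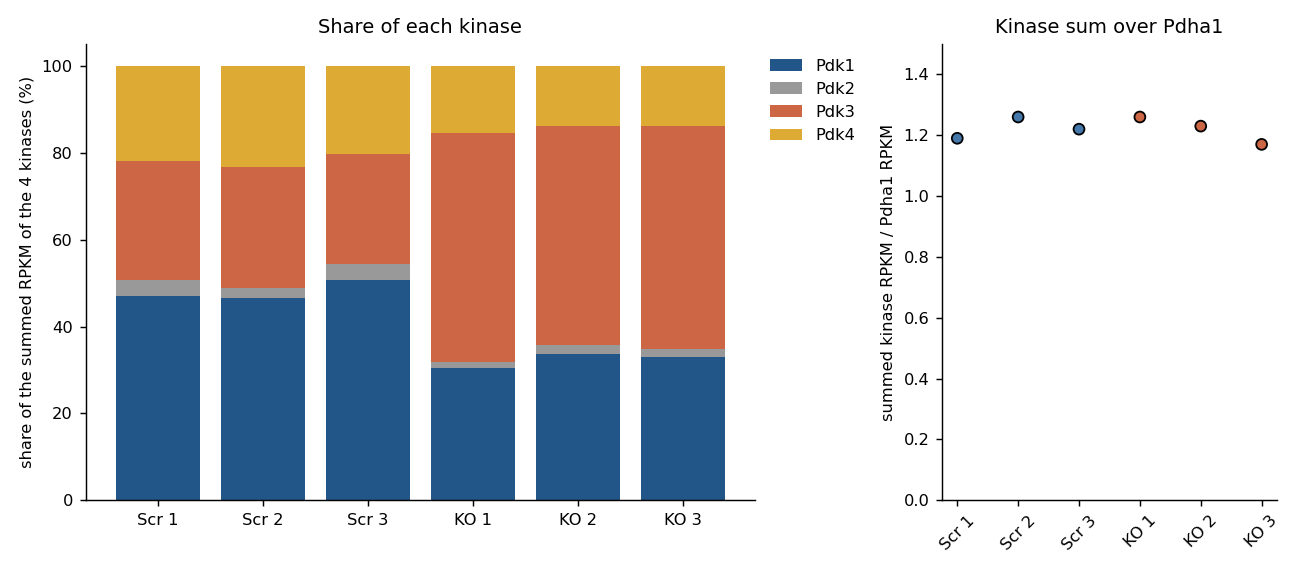
Left, share of each kinase in the summed RPKM of the 4 kinases (y axis, percent) in each library (x axis). Right, summed kinase RPKM divided by Pdha1 RPKM in each library, with the axis from 0. The Pdk3 share was 25.4% to 27.8% in Scr and 50.5% to 52.8% in MICT1 KO libraries, while the ratio on the right stayed between 1.17 and 1.26 in all 6.

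Levels of different genes can be compared only per length, and on that scale the order within the group changed. With exon lengths, Pcx led in Scr cells at 145 ± 6.97 RPKM (SD, n = 3), followed by Pdha1 at 66.9 ± 1.59, and both stood clear of the rest in every library. Pdk1 at 39.4 ± 2.63 and Pdhb at 35.8 ± 2.58 followed, and their ranges overlapped (37.5 to 42.4 and 33.1 to 38.2), as did those of Mpc1 at 23.5 ± 1.82 and Pdk3 at 21.9 ± 0.840, and those of Dlat at 18.8 ± 1.02 and Pdk4 at 17.8 ± 1.20. These neighbours did not differ beyond their spread. Mpc2 at 10.6 ± 0.748 and Pdk2 at 2.68 ± 0.628 were the lowest. In MICT1 KO cells Pdha1 came first at 56.1 ± 1.66 RPKM and Pdk3 moved from the sixth to the second place at 35.3 ± 1.35. Pdk1 was next at 22.2 ± 0.848, and Pcx, at 17.1 ± 1.92 (14.9 to 18.4), was no longer clear of Pdhb at 16.0 ± 0.571 (15.4 to 16.5). Dlat at 11.8 ± 0.354 lay above Mpc1 at 10.1 ± 0.543, whose range (9.55 to 10.6) overlapped that of Pdk4 at 9.82 ± 0.810. The length chosen matters most for Mpc2, whose annotated exons span 7344 bases but whose principal transcript has 1025. With principal transcript lengths, an alternative chosen after seeing the data, Mpc2 stood at 76.3 and 23.1 RPKM, the fourth place in Scr, and Pcx still led in Scr at 170 RPKM.

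**Figure D4:**
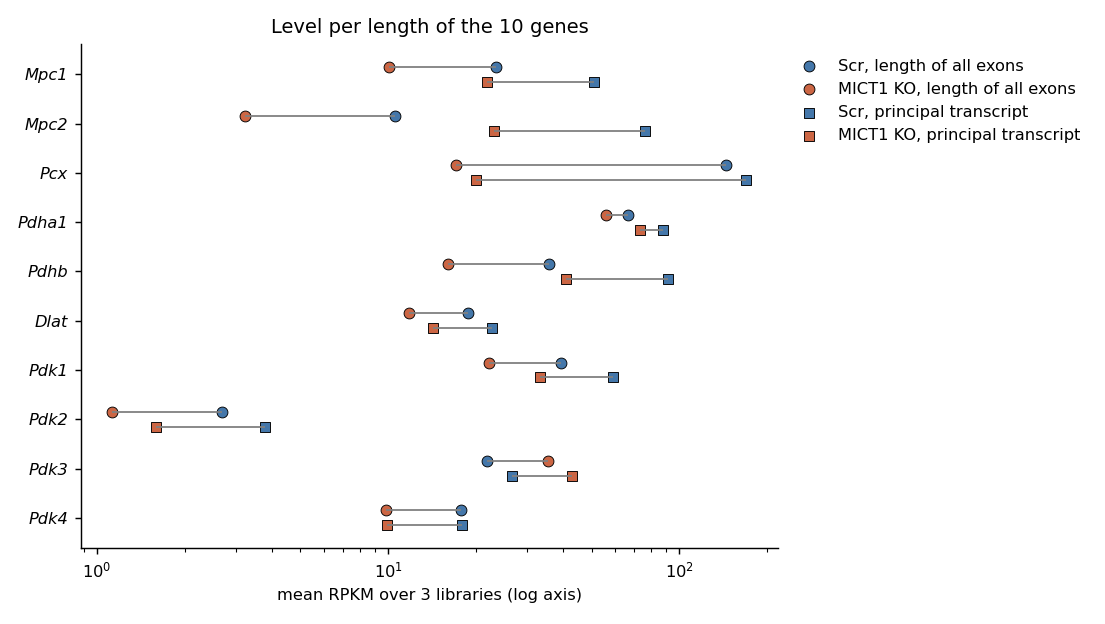
Mean RPKM over 3 libraries (x axis, log scale) of the 10 genes in Scr and MICT1 KO cells, with circles for the length of all annotated exons and squares for the principal transcript. Each line joins the groups. With exon lengths Pcx drops from 145 to 17.1, Pdha1 moves from 66.9 to 56.1 and Pdk3 rises from 21.9 to 35.3, and Mpc2 and Pdhb shift most with the choice of length.

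The other genes of the pathway were taken from 5 lists of 49 genes, of which 45 passed the filter on low values. By limma-trend with Benjamini-Hochberg adjustment 27 were lower and 5 higher, with a median log2 fold change of -0.41. The counts of these lists are to be read beside the shares over all genes tested, of which 56.9% passed, 28.3% lower and 28.5% higher. Among 11 partners of the dehydrogenase (its binding and lipoate-supplying proteins, phosphatases and cofactor suppliers) 6 were lower and 1 higher, and their median log2 fold change was -0.60. Pdpr, which restrains the phosphatase, fell by 1.09 on the log2 scale, Lias, the lipoate synthase, fell by 0.97, Dld, the shared last enzyme of the complex, fell by 0.96, and Lipt2, which transfers lipoate precursors, fell by 0.91. Pdp1, the phosphatase that reverses the kinases, singled out here after its values were seen, was the riser, from 354.1, 270.7 and 274.7 to 419.5, 489.9 and 432.2, a log2 fold change of 0.58 (SE 0.12, limma-trend, Benjamini-Hochberg adjusted p = 0.000346). The other phosphatase, Pdp2, had a log2 fold change of -0.07 (adjusted p = 0.691) and overlapping groups. Pdk3 and Pdp1, which act in opposite directions on the complex, were thus both higher, and the other kinases and Pdpr were lower.

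On the cytosolic side of the carrier the main enzymes that make and use pyruvate did not pass the test. Pkm, the pyruvate kinase, read 60490, 63910 and 63290 for Scr, compared with 63930, 60950 and 60010 for the knockout libraries, with overlapping groups and a log2 fold change of -0.02 (limma-trend, Benjamini-Hochberg adjusted p = 0.766). Ldha, a lactate dehydrogenase subunit, had a log2 fold change of 0.01 (adjusted p = 0.937). Of the 9 genes tested in this list 4 were lower and 2 higher, the median being -0.24, and this count is near the 56.9% of all genes tested that passed. Me1, the cytosolic malic enzyme, fell by 1.07 on the log2 scale, and Gpt, an alanine aminotransferase of low signal (54.40, 50.98 and 42.74 against 29.55, 23.18 and 27.99), fell by 0.85 (adjusted p = 0.0219 by limma-trend), a call lost in 3 alternatives, each with 1 library left out (Scr replicate 1, Scr replicate 2 or MICT1 KO replicate 2), where the adjusted p reached 0.0773. Slc16a1, a plasma membrane carrier of lactate and pyruvate, fell by 0.69 and Slc16a3, the lactate exporter, had a log2 fold change of 0.58, a rise from 4810 ± 231 to 7183 ± 37.7 in signal.

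Genes at or around the use of acetyl-CoA and oxaloacetate were lower in 5 of 8 cases and higher in 2, with a median of -0.17. On the log2 scale Slc25a1, the citrate carrier of the inner membrane, fell by 1.51, and Cs, citrate synthase, fell by 0.44. Me2, a mitochondrial malic enzyme, had a log2 fold change of 0.43, and the other riser was Got2, the mitochondrial aspartate aminotransferase. The sister complexes that share the same kind of core give a comparison for the dehydrogenase. Of 7 such genes 6 were lower, with a median of -0.27. Bckdhb and Bckdha, the beta and alpha subunits of the branched-chain dehydrogenase, had log2 fold changes of -2.22 and -1.48, so there too the beta subunit had the larger fall, although that difference was not tested. Dbt, the core subunit of that complex, fell by 0.62 and its kinase Bckdk fell by 0.27. Ogdh and Dlst, of the 2-oxoglutarate dehydrogenase, fell by only 0.19 and 0.15, and their calls were lost in 2 and 4 alternatives.

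Of 10 tested transcription factors known to act on PDK genes, 6 were lower and none higher, with a median of -0.53. Pparg, the adipogenic nuclear receptor and also an adipocyte marker, fell by 2.31 on the log2 scale, Foxo1 fell by 1.32, Rxra, the receptor that pairs with PPARs, fell by 0.93, and the glucocorticoid receptor Nr3c1 fell by 0.71. Hif1a had a log2 fold change of 0.12 (limma-trend, Benjamini-Hochberg adjusted p = 0.0596), and passed the test when the libraries were scaled by library size (adjusted p = 0.0387) or upper quartile (0.0142) or fitted with limma-voom (0.0269). Ppara was near the filter, at 18.79, 35.23 and 37.65 in Scr libraries, against 18.11, 20.02 and 18.66 for MICT1 KO. Binding of these factors was not measured.

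**Figure D5:**
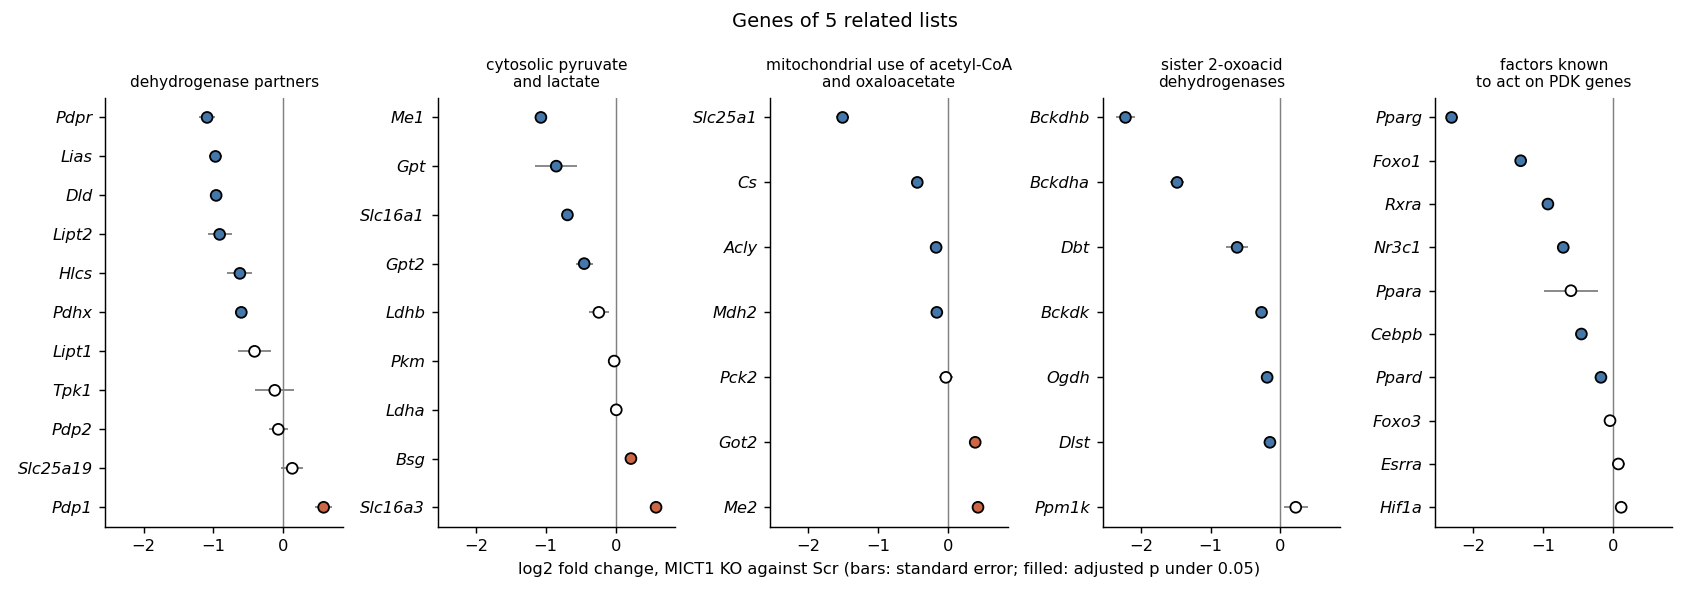
Log2 fold change of MICT1 KO against Scr (x axis) of tested genes of 5 related lists, with bars of 1 SE and 1 gene not shown. Filled points passed an adjusted p of 0.05 by limma-trend, blue for lower and red for higher, and open points did not. Pdp1 at 0.58 is the only riser among the dehydrogenase partners, Pkm at -0.02 and Ldha at 0.01 lie at 0, and Pparg at -2.31 has the deepest fall of the factors.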

How the data were processed

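The authors deposited 1 table of normalized signal per gene for all 6 libraries, which by its low values is an estimate of reads divided by a size factor per library. The submitters' processing notes name Partek, STAR, DESeq2 and GRCm38 (mm10). The methods describe strand-specific libraries, and the counting model and its strand setting are not given in the sources used here. Since these values are not counts, limma-trend (limma 3.58.1, R 4.3.3) was fitted in place of a count test on log2(signal + 1) for genes with a signal of at least 10 in at least 3 libraries, two-sided, with Benjamini-Hochberg adjustment over all 12507 genes tested and a threshold of 0.05, so fold changes of low genes are understated. The fit was tested on simulated data. RPKM used exon lengths of GENCODE M21, found for 12930 genes (97.3%), and the library's summed signal. Depth was estimated from the smallest step between low values. Ratios were compared by an exact permutation test, which for 3 against 3 libraries cannot give p below 0.1, and 2 of the 10 ratios were added after the values were seen. Start sites and sequences are from RefSeq on GRCm38.p6, where all 10 genes matched. The members, lists and motifs were chosen with earlier results of these data known. All members are named, and from each list up to 4 genes with the largest called change and up to 2 exceptions, except that 1 gene of the lists is counted but not reported here by name. Alternatives were library size or upper quartile scaling, limma-voom, pseudocounts of 0.5 and 5, no filter or a maximum RPKM of 4, the replicate number as a block, and each library left out in turn.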

Additional observations from a re-analysis of the deposited data

How the results depend on the processing

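All 10 genes kept their direction and their adjusted p under 0.05 in the 139 alternative values computed for them, by limma-trend or limma-voom. Pdk2 was not tested under the filter at a maximum RPKM of 4, where 9 members remained with a median of -0.87. In fits that each omitted 1 library, the log2 fold change of Pcx ranged from -3.15 to -3.0, that of Pdha1 from -0.281 to -0.242 (largest adjusted p = 0.00208) and that of Pdk2 from -1.43 to -1.08. The log2 difference of summed kinases per Pdha1, -0.00329, changed sign without Scr replicate 2 (0.0186) and without MICT1 KO replicate 3 (0.0268), and over all 6 such fits it ran from -0.0262 to 0.0268. Over all genes tested, 7113 passed, 6340 to 6596 with a library left out and 5394 of 8374 under the RPKM filter. The deviations of same-numbered libraries correlated at -0.0236, -0.0155 and 0.0637, so the numbers gave no sign of pairing, and the replicate block called 7055 genes and all 10 members. Among related genes, the calls of Gpt, Mdh2, Ogdh, Dlst and Ppard were lost in 18 alternative values and Hif1a passed in 3. Scaling moved the median of all genes tested to at most 0.0322. Counting error was largest for Pdk2, at 8.49% in Scr and 13.1% in MICT1 KO, and its spread between libraries was larger still. The 3 cultures per group of 1 cell line do not cover other lines or pools.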
